A study of Homo sapiens with 20 samples.

Results

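The 6 libraries described here were prepared 3 h after plating and compare WT Jurkat T lymphoblasts (3 libraries) with the CD47- Jurkat line JinB8 (3 libraries). They are 6 of 20 mRNA libraries made from total RNA, 10 from each line, that were collected at 1, 3 and 6 h. They were chosen by line and time in the sample labels, and the lines were paired by treatment. Jurkat is an established human T cell leukemia line, and JinB8 is a single somatic mutant of it that lacks CD47. At 3 h each line was sequenced once on plates coated with anti-CD3 and anti-CD28, which engage the T cell receptor and its costimulator, once on such plates with thrombospondin-1 (TSP1, 1 μg/ml) and once with TSP1 alone. All 6 cultures were kept in serum-free HITES medium. No untreated library of 3 h was among them. Library values are given in that order of treatments throughout, WT first.

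CD47 is a widely expressed membrane protein that binds the secreted matrix protein TSP1 and, on neighboring cells, the SIRP receptors. In T cells its ligation by TSP1 limits signals of the T cell receptor, whose engagement activates kinases of the LCK and ZAP70 type and induces immediate early genes such as EGR1 and CD69 within hours. Because JinB8 is 1 clone, differences that arose in its selection and culture cannot be told apart from differences due to CD47 itself.

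Between 16107921 and 24610661 expected counts were assigned to genes in each library. All 12 T cell markers reached at least 1 CPM (a gene's counts relative to the scaled total of the library) in all 6 libraries, and their summed level was 2427 to 2746 CPM in WT and 2030 to 2401 CPM in JinB8. The first principal component held 70.0% of the variance and separated the lines, and correlations of log values were 0.987 to 0.989 within WT, 0.974 to 0.990 within JinB8 and 0.928 to 0.948 between lines. The JinB8 library on anti-CD3 and anti-CD28 with TSP1 stood apart from the other two of its line on the second component (13.8%). It had the lowest depth, 0.747% of its counts came from the nuclear noncoding RNAs MALAT1 and NEAT1 (0.309 to 0.329% in the other 5 libraries), and 5.35% came from ribosomal protein genes (7.02 to 7.93% in the others). Its normalization factor was 1.14, against 0.913 to 1.02. Some values below are also given without this library.

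CD47 mRNA was lower in each JinB8 library but was not absent. WT libraries held 265, 272 and 305 CPM and JinB8 libraries 141, 131 and 159 CPM, or 280.5 ± 21.2 and 144 ± 14.4 CPM (mean ± SD, n = 3 treatments). The lines did not overlap. The difference was -0.97 ± 0.13 on the log2 scale (± SE, adjusted p = 0.00090 in edgeR's quasi-likelihood test with Benjamini-Hochberg adjustment, as for all adjusted p-values below). Over all 20 libraries CD47 spanned 253 to 372 CPM in WT and 124 to 165 CPM in JinB8.

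Of 6 genes tested in the list of CD47 and its partners, 3 were higher and 2 lower in JinB8 (83.3% called against 26.7% of all genes tested). THBS1, described below with the fibroblast transcripts, was among the lower ones. The higher ones were SIRPG, SIRPB1 and SIRPA of the SIRP family, whose members SIRPA and SIRPG bind CD47. SIRPG had 2.70, 4.05 and 4.14 CPM in WT and 18.7, 20.6 and 19.9 CPM in JinB8, a difference of 2.46 ± 0.18 (adjusted p = 4.1e-05). SIRPB1 rose by 2.17 and SIRPA, at 0.0891 to 0.190 CPM in WT and 0.654 to 1.31 CPM in JinB8, by 3.06. SIRPA passed the count filter through JinB8 alone, so it could only be called higher. The groups did not overlap for any of the 3 SIRP genes, nor for 47.7% of all genes tested. QPCTL, which encodes the enzyme that modifies the SIRP binding site of CD47, did not pass the test.

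The contrast of the lines reached a large share of the transcriptome. Of 16804 genes tested, 4481 (26.7%) differed at an adjusted p under 0.05, of which 2403 were higher in JinB8 (14.3% of those tested) and 2078 lower (12.4%). The 3 JinB8 libraries lay entirely above or below the 3 WT libraries for 8010 genes (47.7%). Among genes called higher, 1251 differed over 2-fold, 544 over 4-fold and 105 over 16-fold, and among genes called lower 800, 285 and 72. The direction was the same in all 3 treatment pairs for 2402 of the higher and 2072 of the lower genes. Without the JinB8 library that stood apart, 6426 genes were called in the refit, among them 4316 of the 4481. Of the 16804 genes above, 6296 (37.5%) were called in it, 19.6% higher and 17.9% lower. These shares are the background for counts without that library. Without the WT or the JinB8 library on anti-CD3 and anti-CD28, 2707 or 2818 genes were called. The median difference over all genes tested was 0.0030, and the percentages here are the background for each gene group below. Of the called genes 4292 were also fitted in separate libraries of 1 and 6 h, and 3961 of them (92.3%) had the same sign at both times, against 62.4% of all genes fitted.

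**Figure D1:**
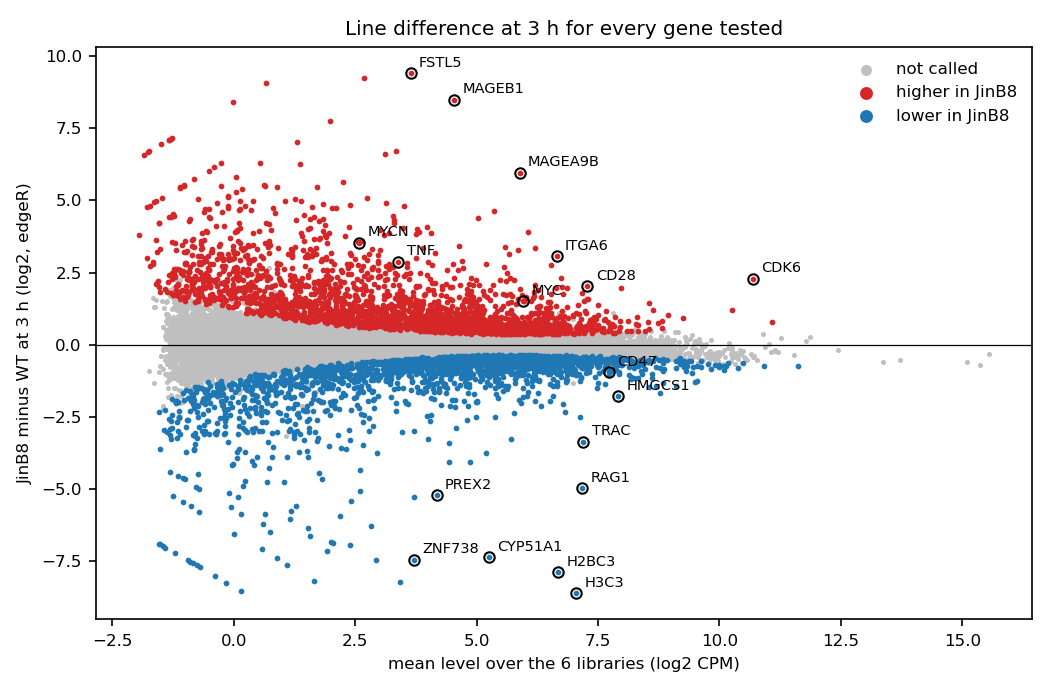
Difference between JinB8 and WT at 3 h for each gene tested (log2 fold change, vertical axis) against its mean level (log2 CPM, horizontal axis), with genes higher in JinB8 in red, lower in blue, not called in gray, and some genes of the text labelled. The 2403 higher and 2078 lower genes lie on both sides over the whole range of levels, and H3C3, H2BC3, CYP51A1 and FSTL5 are among the points farthest from 0.

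Cholesterol synthesis genes were lower in JinB8. Cells make cholesterol from acetyl-CoA through HMG-CoA and squalene, and the transcription factor SREBP2, encoded by SREBF2, raises these enzymes when membrane sterol is low, acting at its own sites beside CCAAT boxes bound by NF-Y. Of 23 genes tested, 18 were lower in JinB8 and none was higher (78.3% called against 26.7% of all genes), with a median of -0.80 and pair medians of -0.67, -1.12 and -0.60. Without the library that stood apart, 19 were lower, 1 was higher, and the median was -0.58. The median was also below 0 in the separate libraries of 1 h (-0.96) and 6 h (-0.57).

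The early steps were among them. HMGCS1, which makes HMG-CoA, had 415, 400.0 and 313 CPM in WT and 116, 93.2 and 115 CPM in JinB8, a difference of -1.79 ± 0.16 (adjusted p = 0.00012). Every WT library exceeded every JinB8 library, and within WT the TSP1-alone library was the lowest. Further along, IDI1, which isomerizes the isoprene unit, fell by 1.26, SQLE, the squalene epoxidase, fell by 1.21, EBP, a sterol isomerase, fell by 1.46, and DHCR7, the last reductase, fell by 0.89. The control genes were lower as well, since SREBF2 fell by 1.12 and INSIG1, which retains SREBP in the endoplasmic reticulum, by 0.93. HSD17B7, PMVK, NSDHL and TM7SF2 did not pass the test.

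CYP51A1, the lanosterol demethylase of the same pathway, was close to absent in JinB8. It had 86.5, 79.8 and 60.6 CPM in WT and 0.759, 0 and 0.523 CPM in JinB8 (-7.39 ± 0.40, adjusted p = 9.8e-06). In all 10 JinB8 libraries of the series it stayed between 0 and 0.723 CPM, while the 10 WT libraries spanned 36.4 to 82.6 CPM. It lies at chr7:92084987-92134803 (GRCh38). AKAP9, which overlaps it on the other strand, differed by 0.30 and the next gene KRIT1 by -0.33, and neither passed the test.

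The promoters of 4 called cholesterol genes are shown as examples. They had the smallest p among those in the RefSeq promoter table with a CCAAT box in the window. Each window of 300 bases around the start site was taken from RefSeq (GRCh38.p14), reads 5′ to 3′ on the strand of the gene, and has CCAAT or its reverse complement ATTGG in capitals. They lie at chr5:43313363-43313662 (minus strand), chrX:48521558-48521857 (plus), chr5:111512486-111512785 (minus) and chr11:71448344-71448643 (minus).
HMGCS1: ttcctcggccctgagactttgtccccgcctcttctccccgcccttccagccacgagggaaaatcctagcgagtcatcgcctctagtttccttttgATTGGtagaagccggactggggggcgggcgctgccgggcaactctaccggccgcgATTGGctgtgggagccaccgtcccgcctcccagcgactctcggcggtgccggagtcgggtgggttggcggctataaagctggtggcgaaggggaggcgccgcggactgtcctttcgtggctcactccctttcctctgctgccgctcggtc
EBP: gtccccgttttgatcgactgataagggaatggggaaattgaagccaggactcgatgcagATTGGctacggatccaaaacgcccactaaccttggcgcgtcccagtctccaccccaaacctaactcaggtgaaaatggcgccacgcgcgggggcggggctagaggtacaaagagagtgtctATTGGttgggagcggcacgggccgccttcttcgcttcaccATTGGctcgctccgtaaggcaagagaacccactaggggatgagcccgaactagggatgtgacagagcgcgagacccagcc
STARD4: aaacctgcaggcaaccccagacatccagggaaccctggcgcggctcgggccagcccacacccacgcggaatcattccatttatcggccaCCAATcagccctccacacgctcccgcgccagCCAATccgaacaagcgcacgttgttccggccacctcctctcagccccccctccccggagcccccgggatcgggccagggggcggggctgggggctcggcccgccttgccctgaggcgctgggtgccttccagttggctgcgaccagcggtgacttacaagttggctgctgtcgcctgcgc
DHCR7: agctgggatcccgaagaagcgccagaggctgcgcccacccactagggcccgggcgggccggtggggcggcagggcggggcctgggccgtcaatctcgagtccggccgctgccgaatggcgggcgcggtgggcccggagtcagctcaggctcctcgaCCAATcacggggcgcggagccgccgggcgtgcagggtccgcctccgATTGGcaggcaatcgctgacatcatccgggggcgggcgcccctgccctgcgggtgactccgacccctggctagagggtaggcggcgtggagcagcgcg

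Of the 18 members of the list with a promoter in the RefSeq table, 15 held CCAAT on either strand (83.3%), as did 37.3% of 10903 promoters of genes tested and 35.7% of 27305 promoters in all. The longer CCAATCA, which contains CCAAT, was in 10 (55.6%, against 9.80% and 7.28%). The E-box CACGTG was in 3 (16.7%, against 10.1% and 7.43%), and the sterol element TCACCCCAC was in 1 (5.56%, against 0.394% and 0.425%). HMGCS1 carries 2 CCAAT boxes in its window, EBP 3, STARD4 2 and DHCR7 2, but these genes were chosen to hold at least 1. CYP51A1, IDI1 and PMVK held none of these 4 motifs in these windows. The list was assembled by function, and no test was made of these shares.

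Genes controlled by ATF4, the factor induced by amino acid shortage and endoplasmic reticulum stress, were higher in JinB8 in 11 of 22 cases and lower in 1, with a median of 0.45 at 3 h that was -0.07 at 1 h and 1.05 at 6 h. Without the library that stood apart 13 were higher and 2 lower. TRIB3, a pseudokinase induced by ATF4, had 40.8, 39.3 and 41.4 CPM in WT and 176, 139.9 and 157 CPM in JinB8 (1.96 ± 0.13, adjusted p = 2.2e-05). ATF5 rose by 1.43, the glutathione-degrading enzyme CHAC1 by 1.21, the cystine transporter SLC7A11 by 1.10 and PSAT1, of serine synthesis, by 0.74. ATF4 itself (-0.10) and DDIT3 (-0.09) did not pass the test, and SLC38A2 fell by 0.50. In glycolysis 5 of 23 genes were higher and 4 lower, or 8 and 4 without the library that stood apart. Hexokinase HK2 had 14.9, 16.4 and 18.0 CPM in WT and 47.6, 59.8 and 56.2 CPM in JinB8 (1.72 ± 0.12), and the pyruvate kinase PKM fell by 0.83.

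The T cell receptor complex was unevenly different. Of 12 genes, 4 were higher and 4 lower in JinB8. TRAC, the constant region of the receptor alpha chain, had 302, 314 and 188 CPM in WT and 30.1, 18.6 and 28.3 CPM in JinB8 (-3.37 ± 0.24, adjusted p = 3.5e-05). The TSP1-alone library was the lowest of the WT group and still above every JinB8 library. PTCRA, the surrogate alpha chain of immature thymocytes, had 12.4, 11.4 and 10.9 CPM against 1.21, 0.819 and 1.09 CPM (-3.47 ± 0.23). TRBC1 and TRBC2, near-identical constant regions of the beta chain among which reads can be split, fell by 1.28 and 0.92. The signaling chains CD3D (-0.28), CD3E (0.16) and CD247 did not pass the test, while CD3G rose by 0.38 and the adaptor TRAT1 by 1.42. CD4 rose by 0.55, and CD8A, at 0.134 to 0.474 CPM in WT and 0.828 to 1.88 CPM in JinB8, by 2.63. CD8A passed the count filter through JinB8 alone.

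Proximal receptor signaling genes were more often higher: of 30, 15 were higher and 4 lower (63.3% called), with a median of 0.38. The adaptor GRAP2 had 16.4, 18.2 and 23.4 CPM in WT and 90.2, 89.4 and 92.3 CPM in JinB8 (2.24 ± 0.14, adjusted p = 1.8e-05). VAV3 rose by 1.31 and phospholipase PLCG1 by 0.76. On the other side ZAP70, the kinase recruited to the receptor, had 162, 163 and 196 CPM in WT and 116, 112 and 93.9 CPM in JinB8 (-0.69 ± 0.15, adjusted p = 0.0095). The phosphatase UBASH3B fell by 1.24, THEMIS by 1.11 and PTPN22 by 0.68. LCK (-0.08) and LAT (-0.18) did not pass the test.

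Immediate early genes differed between the lines in both directions. Of 34 tested, 12 were lower and 6 higher in JinB8, with a median of -0.44. The pair medians were -0.73 on anti-CD3 and anti-CD28, -0.59 with TSP1 added and 0.11 with TSP1 alone. The difference between pairs was not tested for the list as a whole. CD69, the early activation receptor, had 276, 285 and 33.4 CPM in WT and 36.4, 23.3 and 28.5 CPM in JinB8 (-2.33 ± 0.56, adjusted p = 0.016, or -1.64 without the library that stood apart). The 2 activated WT libraries were high, and the WT library with TSP1 alone lay inside the JinB8 range. NR4A1, a nuclear receptor induced by receptor signals, had 220.2, 217 and 28.6 CPM against 37.9, 38.8 and 24.9 CPM (-1.80 ± 0.41, adjusted p = 0.013). EGR2, a zinc finger factor, had 29.7, 26.7 and 3.77 CPM against 4.91, 4.26 and 2.398 CPM (-2.07 ± 0.35). Both genes followed the same order, with 2 high WT libraries. DUSP5, a phosphatase of ERK, fell by 1.96, while DUSP2 had 263, 281 and 36.4 CPM in WT and 75.1, 52.2 and 47.8 CPM in JinB8 and did not pass the test (-1.33 ± 0.45, adjusted p = 0.060), though it passed in 9 of 14 alternative fits, among them the one without the library that stood apart (-0.75, adjusted p = 0.021).

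Within each line the mean of the 2 activated libraries was set against the library with TSP1 alone, on the scale of CPM plus 0.5. The ratio exceeded 2-fold for 15 of the 34 genes in WT and for 3 in JinB8, which were EGR4 (7.94-fold in WT, 2.92-fold in JinB8), EGR1 (5.88 and 2.51) and EGR3 (4.05 and 2.37). CD69 was 8.29-fold in WT and 1.05-fold in JinB8, NR4A1 7.53 and 1.53, DUSP2 7.38 and 1.33 and FOS 3.45 and 1.04. The median log2 ratio was 0.82 in WT and 0.28 in JinB8, and 28 of the 34 genes had the larger ratio in WT. With 1 unactivated library per line these ratios have no replicate of their own. In JinB8 1 of the 2 activated libraries is the one that stood apart, and the ratios were not computed without it. EGR1, scaled over all 20 libraries, had 28.1 CPM in the other activated JinB8 library, 44.6 CPM in the one that stood apart and 14.2 CPM with TSP1 alone.

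**Figure D2:**
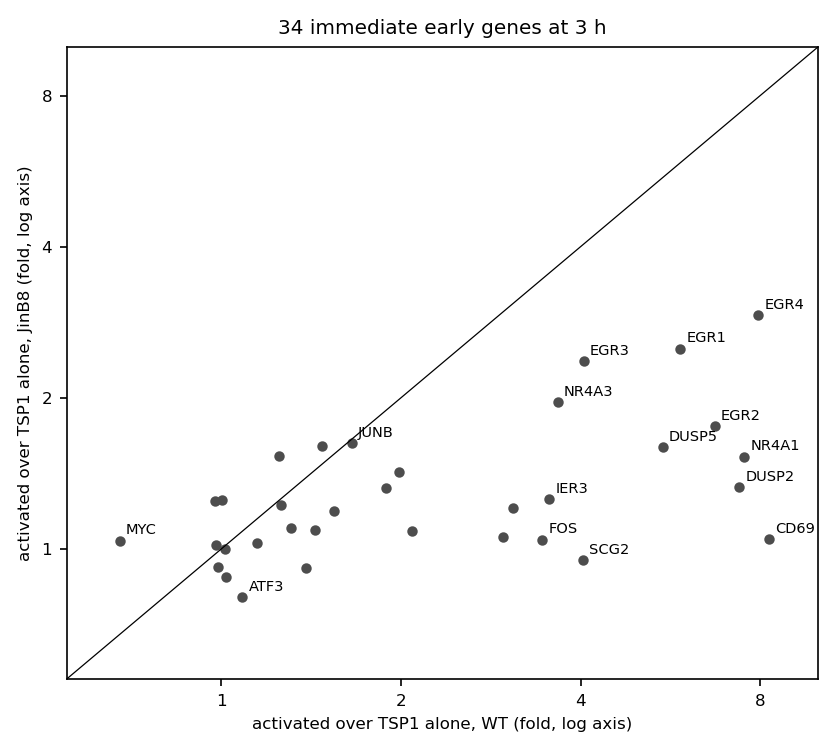
Ratio of the activated libraries (mean of 2) to the library with TSP1 alone at 3 h for 34 immediate early genes, in WT (horizontal axis, fold on a log scale) and in JinB8 (vertical axis, the same scale), 1 point per gene. The points of CD69, NR4A1 and DUSP2 lie far right and low, and 28 of the 34 fall below the line of equal ratios. The JinB8 mean includes the library that stood apart.

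The difference between these responses was tested in a fit of all 20 libraries, which supplied the spread. No gene of 16327 (0%) passed an adjusted p under 0.05 in edgeR, with 1120 at an unadjusted p under 0.05. DESeq2 called 18 and limma voom 0, while 188 passed with no filter on low counts and 599 or 611 without the WT or the JinB8 library on anti-CD3 and anti-CD28. The 4 genes with the smallest p and a smaller activated difference in JinB8 were DUSP2 (-2.52 ± 0.31), DUSP5 (-1.81 ± 0.23), KLF10 (-1.68 ± 0.22) and CSRNP1 (-1.37 ± 0.18), each with an adjusted p of 0.13 in edgeR. CD69 stood at -3.04 ± 0.43, also at 0.13. S1PR3 (0.87, adjusted p = 0.41) and SLC43A2 (1.57, adjusted p = 0.46) had a contrast in the other direction and did not pass either.

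TNF, the inflammatory cytokine, had 2.99, 3.52 and 1.27 CPM in WT and 19.3, 16.5 and 19.2 CPM in JinB8 (2.88 ± 0.29, adjusted p = 0.00023), with no overlap. Of 14 cytokines and TNF family ligands 6 were higher and 1 lower, with a median of 0.74. TNFSF10 (TRAIL) rose by 1.17, TNFSF14 (LIGHT) by 1.45 and lymphotoxin LTA by 0.94. FASLG fell by 1.35, at 2.80, 3.88 and 0.545 CPM in WT and 1.34, 0.819 and 0.392 CPM in JinB8, and the call was lost without the library that stood apart (adjusted p = 0.10). CD40LG, at 12.4 to 13.5 CPM in WT and 14.96 to 16.8 CPM in JinB8, did not pass the test although the lines did not overlap (0.28 ± 0.15, adjusted p = 0.20). IL4, counted among the 6, had 2 counts in all WT libraries together and 0.765 to 0.893 CPM in JinB8. It passed the count filter through JinB8 alone, so it could only be called higher.

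Cytokine receptors moved in both directions, with 6 of 20 higher and 5 lower. IL7R, the receptor for the survival cytokine IL-7, had 47.6, 47.9 and 49.3 CPM in WT and 8.66, 7.26 and 7.59 CPM in JinB8 (-2.62 ± 0.14, adjusted p = 7.7e-06). IL10RA fell by 2.57. IL2RA, the inducible chain of the IL-2 receptor, had 7.25, 5.30 and 0.454 CPM against 1.43, 0.765 and 0.0872 CPM (-2.51 ± 0.32), and was lower in JinB8 in each pair although the WT library with TSP1 alone lay within the JinB8 range. The beta chain IL2RB rose by 2.38 and IL4R, at 14.7, 16.5 and 12.2 CPM against 41.3, 36.2 and 34.2 CPM, by 1.37.

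Costimulatory and checkpoint receptors were called in 12 of 19 cases. Of the 19, 9 were higher and 3 lower, and the median of all 19 was 0.59. CD28, the receptor engaged by one of the plated antibodies, had 64.5, 68.7 and 50.6 CPM in WT and 261, 214 and 275 CPM in JinB8 (2.03 ± 0.17, adjusted p = 7.9e-05). CD226, an activating receptor for nectins, had 107, 104 and 97.4 CPM against 395, 395 and 404 CPM (1.95 ± 0.14). Both were higher in all JinB8 libraries. The inhibitory collagen receptor LAIR1 rose by 1.17 and TNFRSF4 (OX40) by 1.54. CD274 (PD-L1) fell by 1.67, VSIR (VISTA) by 0.53 and TNFRSF1B, a TNF receptor, by 1.87, a call lost without the library that stood apart (adjusted p = 0.066). PDCD1 (PD-1), at 31.9, 24.3 and 7.95 CPM in WT and 19.3, 14.2 and 11.7 CPM in JinB8, did not pass the test. TIGIT was below the count filter.

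**Figure D3:**
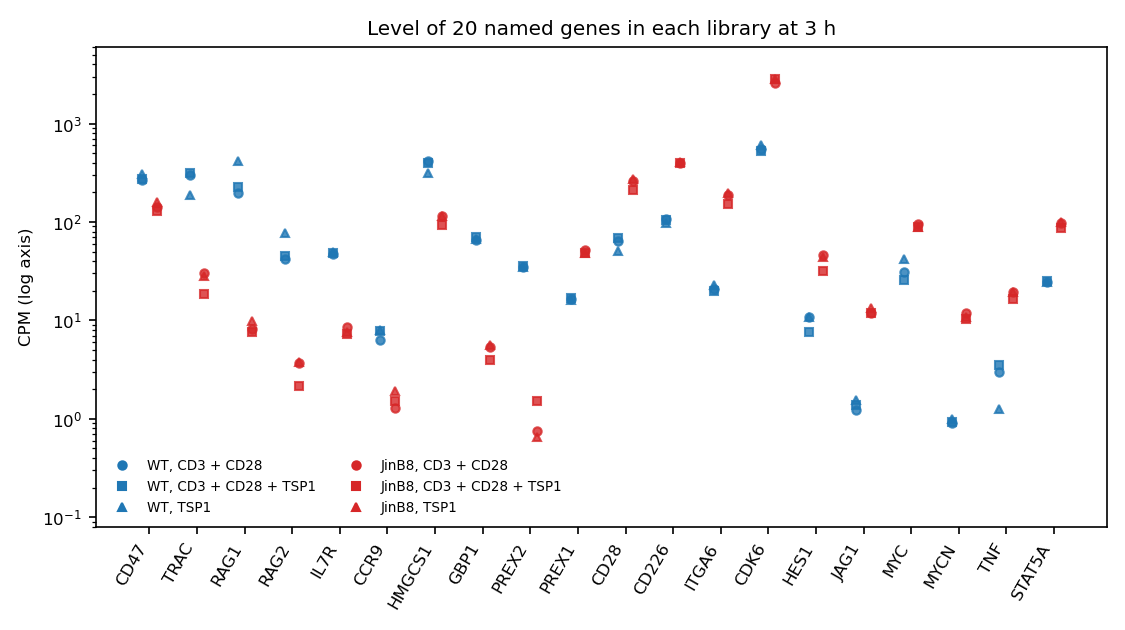
Level of named genes in each of the 6 libraries at 3 h (CPM, log axis), with WT in blue, JinB8 in red and 1 symbol per treatment. RAG1, PREX2, IL7R and TRAC lie higher in all 3 WT libraries, and MYCN, ITGA6, CD226 and TNF lie higher in all 3 JinB8 libraries.

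The recombinase that assembles antigen receptor genes was much lower in JinB8. RAG1 had 195, 228 and 420.1 CPM in WT and 8.13, 7.54 and 9.85 CPM in JinB8 (-4.98 ± 0.20, adjusted p = 3.1e-06), and its partner RAG2 had 41.6, 45.2 and 78.0 CPM against 3.71, 2.13 and 3.75 CPM (-4.07 ± 0.21). In WT both genes were highest in the library with TSP1 alone, and no library of either line overlapped the other line. IFTAP, next to them, was also lower (10.4 against 0.244 CPM on average, -5.43). RAG1 (chr11:36510372-36593156), RAG2 (chr11:36575574-36598279) and IFTAP (chr11:36594369-36675695) lie side by side, and RAG2 overlaps each of the other two on the opposite strand, so reads may be shared there. Over all 20 libraries RAG1 spanned 187 to 565 CPM in WT and 5.73 to 10.9 CPM in JinB8. Of the 12 V(D)J recombination genes, HMGB1 and HMGB2, DNA-bending cofactors, fell by 0.70 and 0.68 (HMGB2 by 0.42 without the library that stood apart, and HMGB1 not called without either library on anti-CD3 and anti-CD28, adjusted p up to 0.17), DNTT, which adds untemplated nucleotides, rose by 0.43, and the 7 end-joining genes did not pass the test.

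The 3 MYC family genes were all higher. MYCN had 0.901, 0.936 and 1.00 CPM in WT and 11.9, 10.3 and 10.9 CPM in JinB8 (3.54 ± 0.23, adjusted p = 2.1e-05). MYC had 31.3, 25.7 and 42.4 CPM against 96.5, 89.3 and 89.5 CPM (1.498 ± 0.16, adjusted p = 0.00025), and MYCL 2.13, 2.01 and 2.91 CPM against 8.62, 5.95 and 7.02 CPM (1.61 ± 0.24). For each of these genes every JinB8 library exceeded every WT library. In the network of their dimerization partners, MLXIP rose by 1.02 (0.56 without the library that stood apart) and the other 8 genes tested, MAX among them (0.05 ± 0.12, adjusted p = 0.78), did not pass the test. Without the library that stood apart 5 of the 12 were higher and 1 was lower. Over 20 libraries MYCN kept apart (0.555 to 1.03 CPM in WT, 7.95 to 13.6 CPM in JinB8), whereas MYC ranges met (22.1 to 85.0 and 48.3 to 181 CPM).

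The NOTCH pathway, through which thymic stroma drives T cell commitment and which is often mutated in T cell leukemia, had 9 of 20 genes higher and 2 lower, with a median of 0.67. The ligands JAG1 (1.23, 1.38 and 1.55 against 11.9, 12.0 and 13.4 CPM) and DLL1 rose by 3.16 and 3.03. Among targets, HES1 had 10.8, 7.57 and 10.7 CPM in WT and 46.2, 31.4 and 44.3 CPM in JinB8 (2.06 ± 0.13, adjusted p = 2.1e-05), and DTX1 rose by 1.89. The receptor NOTCH1 had 25.4, 20.8 and 36.8 CPM against 87.2, 139 and 58.5 CPM (1.73 ± 0.32), or 1.22 without the library that stood apart. NOTCH2 fell by 1.03.

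Of 37 transcription factors of T cell lineage and leukemia, 12 were higher and 7 lower. IKZF3 (Aiolos), a lymphoid zinc finger factor, had 39.3, 36.4 and 41.9 CPM in WT and 3.53, 5.30 and 2.49 CPM in JinB8 (-3.42 ± 0.24, adjusted p = 3.0e-05). The leukemia-associated LYL1 had 0.332, 0.267 and 0.0909 CPM against 5.49, 6.28 and 3.92 CPM (4.51 ± 0.36), and ZBTB7B, which specifies CD4 T cells, rose by 4.35. LYL1 and ZBTB7B passed the count filter through JinB8 alone, so they could only be called higher. ETS1 rose by 1.44, GATA3 by 1.68 (1.298 without the library that stood apart) and BCL11B by 0.88. SATB1 fell by 0.84 and TOX2 by 2.48. TCF7 (0.17) did not pass the test, whereas TAL1 and LEF1 rose by 0.57 and 0.58.

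Homing and adhesion genes differed in both directions: 14 of 35 were higher and 13 lower (77.1%), and the lines did not overlap for 34. Their median was 0.19 and ran from -0.34 to 0.38 over the alternative fits. ITGA6, the laminin-binding integrin chain, had 21.0, 19.8 and 22.8 CPM in WT and 187, 154 and 198 CPM in JinB8 (3.08 ± 0.13, adjusted p = 3.4e-06). ITGA1, of the collagen receptor, had 9.86, 8.29 and 9.32 CPM against 64.7, 59.9 and 66.4 CPM (2.80 ± 0.13). CCR4 rose by 1.73 and the sphingosine phosphate receptor S1PR1 by 1.176. The gut-homing receptor CCR9 had 6.26, 7.89 and 7.95 CPM in WT and 1.295, 1.53 and 1.92 CPM in JinB8 (-2.22 ± 0.23, adjusted p = 0.00023). CCR7, which guides lymphocytes into lymph nodes, fell by 1.26. CXCR4 fell by 0.94, CCR8 by 2.28 and ITGA4 by 1.03. For ITGA6, ITGA1 and CCR9 no JinB8 library fell within the WT range.

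The exchange factors that load small GTPases of the Rac family for migration included a pair of relatives with opposite differences. PREX2 had 35.2, 35.8 and 34.8 CPM in WT and 0.759, 1.53 and 0.654 CPM in JinB8 (-5.22 ± 0.25, adjusted p = 5.0e-06). PREX1 had 16.4, 16.9 and 16.3 CPM against 52.5, 48.0 and 48.4 CPM (1.59 ± 0.12, adjusted p = 5.4e-05). Both differences were far larger than the spread within each line. Of the 20 genes tested 9 were higher and 2 lower, the second being DOCK9 (-0.53), and ARHGEF2 rose by 1.00.

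Death receptors and BCL2 family genes were called in 10 of 29 cases, 7 higher and 3 lower. TNFRSF10A, a TRAIL receptor, had 1.09, 1.51 and 0.909 CPM in WT and 6.70, 6.55 and 7.59 CPM in JinB8 (2.58 ± 0.27), and the decoy receptor TNFRSF10D rose by 1.38. CASP8, the initiator caspase of these receptors, fell by 0.90 and BCL2 by 0.63. MCL1 did not pass the test (-0.59, adjusted p = 0.081) but passed it in 6 of 14 alternative fits, which ran from -0.93 to -0.32. Without the library that stood apart it was -0.32 (adjusted p = 0.061).

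Of 30 genes of MHC class I presentation 13 were lower, 2 were higher and 15 did not pass the test, with a median of -0.26, and without the library that stood apart 15 were lower and 4 higher. B2M, the shared light chain, had 826, 817 and 751 CPM in WT and 328, 228 and 352 CPM in JinB8 (-1.42 ± 0.18, adjusted p = 0.00077). HLA-B had 160.4, 145 and 136 CPM against 63.2, 47.8 and 52.4 CPM (-1.44 ± 0.12). Both were lower in every JinB8 library. The peptide trimming enzyme ERAP2 fell by 1.28, PSMB9 by 0.82 and TAP1 by 0.62. NLRC5, the transactivator of class I genes, rose by 1.299. Reads of HLA genes may be split among near-identical copies and alleles. Of 35 interferon-stimulated genes 10 were higher (IFITM1 by 1.298) and 7 lower (IFIT3, which fell by 2.91, and the RNA sensor IFIH1, which fell by 1.49, among them). GBP1, an interferon-induced GTPase outside that list, had 66.1, 70.7 and 67.8 CPM in WT and 5.40, 3.93 and 5.67 CPM in JinB8 (-3.77 ± 0.16, adjusted p = 3.4e-06).

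Of 28 mitosis genes 15 were lower and 1 higher, with a median of -0.41, and of 32 DNA replication genes 11 were lower, none was higher and 21 did not pass the test (median -0.33), or 15 were lower and 1 higher without the library that stood apart. The mitosis median was -0.34 without that library, and it was -0.15 at 1 h and -0.91 at 6 h. For DNA replication it was -0.34 at 1 h and -0.32 at 6 h. TOP2A, which untangles chromosomes, had 1422, 1456 and 1385 CPM in WT and 807, 650.5 and 863 CPM in JinB8 (-0.89 ± 0.17, adjusted p = 0.0066). HMMR, a spindle protein, was the exception and rose by 0.76. MKI67 had 792, 809 and 739 CPM in WT and 479.9, 1072 and 482 CPM in JinB8, where the library that stood apart was above WT and the other two below, and it did not pass the test (-0.31, or -0.67 with an adjusted p of 1.2e-05 without that library). Of 16 CDK inhibitors and G1 regulators 3 were higher and 5 lower, or 5 and 5 without that library. CDK6 had 549.5, 531 and 613 CPM in WT and 2569, 2871 and 2814 CPM in JinB8 (2.29 ± 0.18, adjusted p = 6.1e-05). The cyclins CCND2 and CCND1 rose by 2.23 and 1.97, and the inhibitors CDKN2C and CDKN1A fell by 1.04 and 1.15. CDKN1A was at 51.8, 50.9 and 15.9 CPM in WT and 17.8, 15.5 and 14.3 CPM in JinB8, so its WT library with TSP1 alone lay within the JinB8 range.

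Replication-dependent histone genes, whose mRNAs mostly lack a poly(A) tail and are therefore captured in part by an mRNA kit, were lower in 28 of 62 cases and higher in 1 (median -0.46). Without the library that stood apart 45 were lower. The neighboring genes H2BC3 (chr6:26043227-26043713) and H3C3 (chr6:26045384-26045869) were nearly absent. H3C3 had 281, 245 and 266 CPM in WT and 0.625, 0.874 and 0.523 CPM in JinB8 (-8.63 ± 0.22, adjusted p = 2.6e-07). H2BC3 had 195, 206 and 213 CPM against 0.893, 0.710 and 0.916 CPM (-7.91 ± 0.18, adjusted p = 2.3e-07). Their flanking genes H2AC4 (-0.95) and H1-2 (-0.78) fell far less.

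Cytosolic ribosomal protein genes were lower in 15 of 82 cases and higher in 1 (19.5% called, below the background of 26.7%). Their median of -0.42 moved with 1 library, since the pair medians were -0.25, -0.85 and -0.22 and the median without that library was -0.22, with 32 lower and 3 higher. Of 15 genes of mitochondrial DNA 1 was lower, and their median changed sign over the alternative fits. The shares called were 38.9% for heat shock chaperones (3 higher and 4 lower of 18), 16.7% for the DNA methylation machinery (1 and 2 of 18), 20% for the KRAB corepressor and HUSH genes (1 and 2 of 15) and 28.6% for the zinc and metallothionein genes (1 and 1 of 7). Without the library that stood apart the higher and lower counts were 7 and 4, 3 and 4, 2 and 3, and 3 and 1, and 3 of the genes of mitochondrial DNA were lower. Among these lists HSPA1B, a near-identical copy of HSPA1A, fell by 1.46, and MT1E had 2.72 to 3.45 CPM in WT and 1 count in each JinB8 library.

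**Figure D4:**
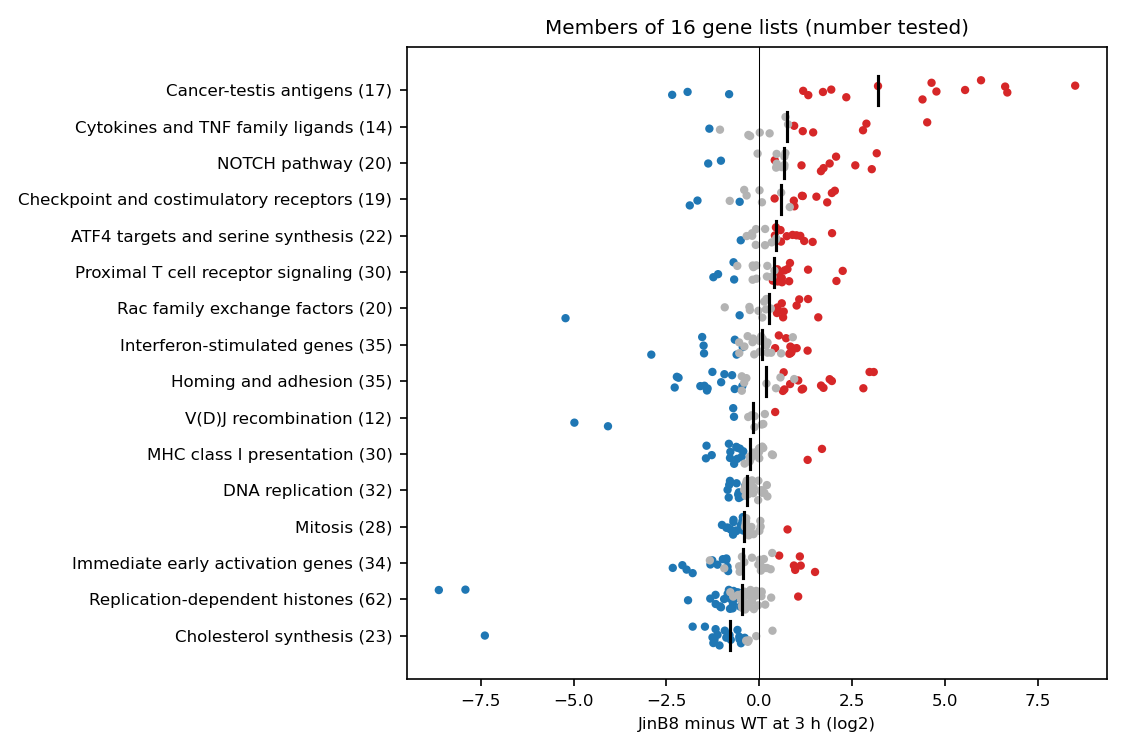
Difference between JinB8 and WT at 3 h (log2, horizontal axis) for the members of 16 gene lists, 1 point per gene, with the number tested in parentheses and the median as a black bar. Red points were called higher, blue points lower and gray points were not called, and the blue points of cholesterol synthesis lie around its median of -0.80.

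Some genes were expressed in one line only. With at least 1 CPM in all 3 libraries of a line and at most 3 counts in each library of the other, 33 genes were on only in JinB8 (24 protein-coding, 3 zinc finger genes) and 30 only in WT (26 protein-coding, 6 zinc finger genes). At a minimum of 2 CPM the counts were 10 in JinB8 (1 zinc finger gene) and 17 in WT (6 zinc finger genes). For scale, the 16804 genes tested at 3 h held 215 zinc finger genes of chromosome 19 and 240 others. No test was made of these counts. FSTL5, which encodes a secreted follistatin-like protein, had 28.05, 19.7 and 27.0 CPM in JinB8 and 2 counts in all WT libraries together. Over 20 libraries it spanned 18.7 to 36.6 CPM in JinB8 and 0 to 0.287 CPM in WT. On the other side CLEC2B, a lectin of the natural killer gene complex near CD69 on chromosome 12, had 29.6, 22.5 and 11.8 CPM in WT and 0.0447 to 0.0872 CPM in JinB8. DPYD, the pyrimidine-degrading dehydrogenase, was low but present in JinB8 (40.3, 42.2 and 40.2 against 1.79, 2.84 and 2.79 CPM, -4.06 ± 0.18).

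Some zinc finger genes were close to absent in JinB8. ZNF544 had 12.8, 14.5 and 17.9 CPM in WT and 0.134, 0.0546 and 0.0436 CPM in JinB8 (-7.48 ± 0.35, adjusted p = 5.0e-06), and ZNF738 had 26.7, 26.0 and 25.5 CPM against 0.134, 0.164 and 0.131 CPM (-7.47 ± 0.25). ZNF329 (chr19:58126248-58155110) and ZNF544 (chr19:58228594-58277495) were both lower, while ZNF274, between them, did not pass the test (0.01 ± 0.15, adjusted p = 0.95). ZNF891 (chr12:133104779-133130274) and ZNF10 (chr12:133130575-133159465), which lie 301 bases apart on opposite strands, were at 7.30 to 7.63 and 3.23 to 4.37 CPM in WT and at 3 counts and 1 count in all JinB8 libraries together. Their neighbors ZNF26 (0.48) and ZNF268 (-0.11) were expressed in both lines. ZNF486 was on in JinB8 only, at 3.11 to 5.94 CPM. These pairs were picked out after their values were seen. As a class, 43 of 215 zinc finger genes of chromosome 19 were higher and 25 lower (median 0.15), and of 240 others 40 were higher and 17 lower (median 0.14). Without the library that stood apart these counts were 71 and 28, and 66 and 31.

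For each line, the promoter of the gene with the highest level among protein-coding genes on in that line only and present in the RefSeq table is shown with each CG dinucleotide in capitals, since DNA methylation in mammals falls mainly on CG. ZNF544 (chr19:58228664-58228963, plus strand), on in WT, has 31 CG in its window and FSTL5 (chr4:162163951-162164250, minus strand), on in JinB8, has 11, both from RefSeq (GRCh38.p14) and read 5′ to 3′ on the strand of the gene.
ZNF544: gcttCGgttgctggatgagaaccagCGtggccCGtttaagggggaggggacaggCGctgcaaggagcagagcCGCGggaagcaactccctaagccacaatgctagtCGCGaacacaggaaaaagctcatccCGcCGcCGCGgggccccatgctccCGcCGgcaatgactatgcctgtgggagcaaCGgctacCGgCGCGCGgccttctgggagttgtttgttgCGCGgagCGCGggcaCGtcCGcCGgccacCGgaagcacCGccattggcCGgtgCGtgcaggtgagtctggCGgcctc
FSTL5: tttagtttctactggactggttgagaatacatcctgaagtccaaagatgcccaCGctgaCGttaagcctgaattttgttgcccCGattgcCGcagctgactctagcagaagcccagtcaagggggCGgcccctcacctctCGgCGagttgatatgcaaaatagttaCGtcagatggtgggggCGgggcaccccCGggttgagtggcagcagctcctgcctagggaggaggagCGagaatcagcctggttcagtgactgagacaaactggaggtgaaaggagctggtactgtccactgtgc

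Over the 21 promoters in the table of genes on only in WT the median was 27 CG (5 to 46), over the 21 of genes on only in JinB8 it was 19 (3 to 42), and over 10903 promoters of genes tested 26. At a minimum of 2 CPM the medians were 28 over 12 promoters for WT (6 to 46) and 10.5 over 8 promoters for JinB8 (4 to 31). DNA methylation was not measured in these samples, and the shares were not tested.

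Cancer-testis antigens are germline genes, many on the X chromosome, that are silent in most somatic cells. Of 107 listed by name, 17 passed the count filter, 14 of them higher in JinB8 and 3 lower. Those that passed through the line where they are high had to differ, so no share is read from them. MAGEB1 had 0.190, 0.134 and 0.0454 CPM in WT and 52.0, 37.3 and 50.1 CPM in JinB8 (8.50 ± 0.27, adjusted p = 1.0e-06). MAGEA9B had 1.85, 2.09 and 1.59 CPM against 126, 97.9 and 125 CPM (5.96 ± 0.19), and MAGEA12 rose by 4.63. CSAG2, MAGEA2B, MAGEA12, CSAG4, MAGEA2 and CSAG3, at chrX:152708261-152760222, were picked out after their values were seen as near neighbors among genes over 16-fold apart. MAGEA2 and MAGEA2B, like CSAG2 and CSAG3, are near-identical copies among which reads can be split. GAGE2A and PAGE4 were lower, PAGE4 not without the library that stood apart (adjusted p = 0.082), and the third lower name, SSX2IP, encodes a protein that binds SSX2 and is not such an antigen.

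By position, the median difference over the genes of a chromosome was highest for chromosomes 21 (0.19, 60 higher and 17 lower of 217), 19 (0.17, 247 and 69 of 1148) and 9 (0.15, 128 and 59 of 651), and lowest for 15 (-0.17, 49 and 135 of 606), X (-0.15, 70 and 127 of 530) and 6 (-0.13, 67 and 170 of 857). In windows of 10 Mb, on X the median was -0.64 from 10 to 20 Mb (2 higher and 19 lower of 38), -0.68 from 20 to 30 Mb and -0.57 from 40 to 50 Mb, where 42 of 71 genes were lower and none was higher. Chromosome 21 had a median of 0.52 from 40 to 50 Mb (33 higher and 4 lower of 76), and chromosome 9 one of 0.41 from 130 to 140 Mb (46 and 2 of 119). From 130 to 140 Mb the median was 0.48 on chromosome 12 (9 and 2 of 31) and 0.45 on chromosome 10 (8 and 0 of 23). In the separate libraries of 1 h the 3 windows of X had medians of -0.58, -0.54 and -0.55, and at 6 h of -0.62, -0.59 and -0.54. At the same times, in that order, medians were 0.39 and 0.22 in the chromosome 21 window and 0.26 and 0.33 in the chromosome 9 window, while chromosome 19 as a whole had 0.06 and 0.09. They were 0.19 and 0.18 in the chromosome 12 window and 0.19 and 0.19 in the chromosome 10 window. Without the library that stood apart, the 3 h medians were 0.33 in the chromosome 12 window and 0.20 in the chromosome 10 window. They were 0.45 in the chromosome 21 window, 0.30 in the chromosome 9 window and -0.58, -0.62 and -0.56 in the 3 windows of X.

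The difference at 3 h was compared with the mean of those at 1 and 6 h in the fit of all 20 libraries. Of 16327 genes, 219 (1.34%) passed, 125 with a larger value at 3 h and 94 with a smaller one, and without the library that stood apart 168 passed, of which 116 were shared. The count depends on the library on anti-CD3 and anti-CD28: without it in either line, 8 genes passed, and without the library with TSP1 alone 871 (WT) or 862 (JinB8) did. STIM2, a calcium sensor of the endoplasmic reticulum, had 109.5, 96.2 and 66.3 CPM in WT at 3 h against 33.7 to 42.3 CPM in WT at the other times and 29.8 to 35.3 CPM in all JinB8 libraries. Only the WT libraries of 3 h were high, and the line difference at 3 h minus that at 1 and 6 h was -1.11 ± 0.13 (adjusted p = 0.0045). ANTXR2, an anthrax toxin receptor that binds collagen, had 11.2, 11.4 and 6.83 CPM in WT at 3 h, 1.05 to 1.47 CPM at 1 h and 3.95 to 5.59 CPM at 6 h, with 15.4 to 21.98 CPM in JinB8 (-1.66 ± 0.21).

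HSPA5 (BiP), the main chaperone of the endoplasmic reticulum, had 172, 176 and 123 CPM in WT at 3 h and 717 to 823 CPM in WT at 6 h, while JinB8 held 224 to 300.1 CPM at 3 h and 241 to 256 CPM at 6 h. The line difference was therefore 0.68 at 1 and at 3 h and -1.61 at 6 h, and the contrast of 3 h with the others was 1.15 ± 0.11 (adjusted p = 0.0012). ABCG1, a cholesterol exporter, had 6.16, 7.04 and 9.99 CPM in WT at 3 h, 25.1 to 27.6 CPM at 1 h and 14.9 to 18.1 CPM at 6 h. In JinB8 it had 23.5, 25.5 and 27.1 CPM at 3 h, 50.6 to 52.9 CPM at 1 h and 18.3 to 19.3 CPM at 6 h. Its line differences were 0.97, 1.73 and 0.22 at 1, 3 and 6 h (contrast 1.14 ± 0.13). In these values, which were scaled over all 20 libraries, STAT5A, a factor downstream of cytokine receptors, was higher in JinB8 at all times, with 23.2, 24.0 and 23.4 CPM in WT and 93.3, 81.9 and 94.6 CPM in JinB8 at 3 h and line differences of 2.76, 1.93 and 2.50 at 1, 3 and 6 h.

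Transcripts that fibroblasts make were found in a subset of libraries of both lines. The summed level of COL1A2, COL3A1, DCN, LUM and PDGFRA was 2.94 to 3.98 CPM in the 3 WT libraries of 3 h and 0.0425 to 0.125 CPM in the 3 JinB8 libraries. With COL1A1 the marker list has 6 genes. Scaled over the libraries of 3 h, its sum was 4.99 to 6.54 CPM in WT and 3.66 to 6.55 CPM in JinB8, so the lines overlapped. Over the series, with CPM scaled over all 20 libraries, the sum was 1.98 CPM or more in 9 libraries and 0.199 CPM or less in the other 11. The 9 were WT at 1 h except the library with TSP1 alone, WT at 3 h, WT with TSP1 alone at 6 h and both activated JinB8 libraries at 6 h. THBS1, the gene of TSP1, followed the same libraries, at 6.87 to 11.8 CPM in the 9 and 0.163 to 1.35 CPM in the 11. At 3 h it had 7.87, 9.98 and 10.9 CPM in WT and 0.536, 1.31 and 1.13 CPM in JinB8 (-3.31 ± 0.26, adjusted p = 5.8e-05), and the line difference was -3.65 at 1 h and 1.79 at 6 h.

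The other genes that followed the same 9 libraries include CD44 (2.70, 2.41 and 2.14 CPM in WT and 0.536, 0.437 and 0.610 CPM in JinB8 at 3 h, -2.17 ± 0.36) and GREM1. ULBP2, a ligand of natural killer receptors, differed by -0.78 at 3 h and spanned 14.2 to 22.5 CPM in the 9 libraries and 9.75 to 15.8 CPM in the 11, so that the sets overlapped. GREM1, and COL1A2 of the 5 markers, are among the 30 genes on only in WT at 3 h. COL1A1, also a fibroblast marker, was instead higher in JinB8 (2.18, 1.92 and 2.36 against 4.47, 6.499 and 3.53 CPM, 1.12 ± 0.29). The part of the fibroblast transcripts in the differences of THBS1, CD44, ULBP2 and GREM1 was not tested.

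**Figure D5:**
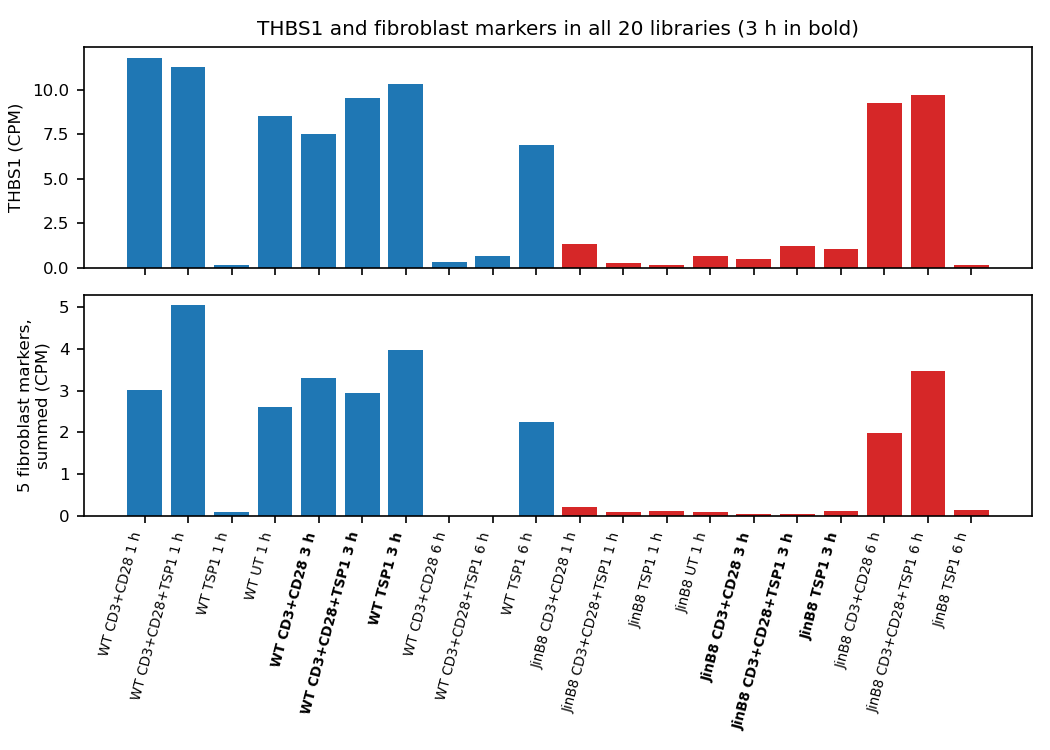
Level of THBS1 (upper bars, CPM) and summed level of COL1A2, COL3A1, DCN, LUM and PDGFRA (lower bars, CPM) in each of the 20 libraries, with WT in blue and JinB8 in red. The same 9 libraries have high bars in both panels, among them the 3 WT libraries of 3 h, and the 3 JinB8 libraries of 3 h are low in both.

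For markers of other cell types at 3 h the summed levels were 1.36 to 1.96 CPM in WT and 1.21 to 2.13 CPM in JinB8 for 8 myeloid markers, 4.18 to 6.55 and 7.54 to 9.83 CPM for 6 natural killer markers, 1.11 to 4.22 and 4.23 to 7.41 CPM for 7 erythroid and platelet markers, among which PF4 was at 0, and 2.09 to 2.94 and 2.51 to 3.97 CPM for 5 epithelial markers. The 7 B cell markers summed to 55.03 to 57.7 CPM in WT and 8.03 to 10.5 CPM in JinB8. These came mostly from CD79A, at 42.3, 44.5 and 39.5 CPM against 6.03, 4.37 and 6.497 CPM (-2.91 ± 0.17, adjusted p = 1.7e-05), and from the kinase BLK, which fell by 2.81.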

How the data were processed

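Per the labels and the methods of the study, the authors prepared poly(A)-selected paired-end libraries, and the submitters' processing notes name cutadapt 1.18, STAR 2.4.2a, RSEM 1.3.3 and GRCh38. The deposited values are RSEM expected counts for 60719 genes, which were rounded to whole numbers here. Whether counting used strand is not given in the sources used here. A further 2 columns of the table matched no sample and were not used. CPM values were scaled by TMM over the 6 libraries of 3 h, or over all 20 where other times appear.

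Genes passing edgeR's filterByExpr (minimum count 10, total 15) were fitted with edgeR 4.0.16 in R 4.3.3 by the quasi-likelihood test, with line and treatment as terms, so that treatment pairs the libraries as the block, and called at a Benjamini-Hochberg adjusted p under 0.05. A gene near 0 in one line passed this filter through the other line alone and could be called only in that direction. Counts and medians of the lists include such genes. The contrasts of line with activation and with time were fitted on all 20 libraries. Scripts were tested on simulated data. Deviations of libraries that share a treatment correlated at 0.052, -0.039 and -0.00029. The 3 libraries of a line differ in treatment, and nothing in the labels says that they came from separate cultures, so the p-values measure only the spread between these samples. An exact permutation test of 3 against 3 cannot go below 0.1. Alternatives were DESeq2 1.42.0, limma 3.58.1 voom, other scaling and filters, other sets of libraries and leaving out each library.

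The comparison, the 32 gene lists and 7 marker lists were chosen with earlier results of these data known. The 128 named genes are CD47, genes named by the study, the largest differences among called genes at a mean of 5 CPM or more or at 1 CPM in every library, up to 3 genes of each list and up to 4 per direction of each contrast by p. Further list members are given as examples. Promoters are RefSeq sequences of GRCh38.p14, matched by symbol. Some members of the lists are counted in them but not reported here.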

Additional observations from a re-analysis of the deposited data

Results flagged for a closer look

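The difference between the lines at 3 h was set against the mean of those at 1 and 6 h by an interaction contrast in edgeR, and 219 genes differed. The 8 named by the rule are given as log2 differences of differences, of which ARHGEF10 (1.42), HSPA5 (1.15), ABCG1 (1.14) and NEURL1B (0.93) were above 0. FAM187A (-8.26), STIM2 (-1.11), ANTXR2 (-1.66) and STAT5A (-0.70) were below 0.

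ARHGEF10, an exchange factor of small GTPases, had 17.4, 17.3 and 25.1 CPM in WT and 15.9, 11.7 and 15.5 CPM in JinB8 at 3 h. In WT it had 30.9 to 36.7 CPM at 1 h and 43.1 to 46.2 CPM at 6 h, and in JinB8 14.2 to 16.5 and 6.78 to 7.61 CPM, so the WT libraries were lowest at 3 h. NEURL1B, a ubiquitin ligase of NOTCH ligands, had line differences of 0.26, 0.50 and -1.12 at 1, 3 and 6 h. FAM187A was at 0 in all JinB8 libraries of 3 h and at 1.66, 1.34 and 0.545 CPM in WT, at least 24.9-fold lower in JinB8 with 3 counts over the 3 JinB8 libraries together as the floor. Its fitted value above depends on the prior count and is no bound, and it overlaps CCDC103 on the same strand, so that reads may be split between them.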

How the results depend on the processing

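The direction and call of CD47 held in all 14 alternatives (-0.996 to -0.88). The line contrast called 4481 genes, and 6923 (3473 lower) in the fit of all 20 libraries. Leaving out 1 library gave 2707 to 6426 calls, 1614 to 3347 higher and 1093 to 3105 lower. The lowest counts came without the libraries on anti-CD3 and anti-CD28 (2707 without WT, 2818 without JinB8) and the highest without those with TSP1 added (6235 and 6426). Without the treatment block, which pairs the libraries, 5093 were called. DESeq2 (3980) and voom (4511) stayed within 1.5 times. The contrast with time called 219, against 609 by DESeq2, 341 by voom, 1309 with no filter on low counts, 353 at 1 CPM or more in every library, 1041 for 3 h against 6 h alone, 641 without the block and 8 to 871 with a library left out. The activation contrast called 0, against 18 by DESeq2, 188 with no filter and 0 to 611 with a library left out (599 and 611 without either CD3_CD28 library), and it could not be fitted without the 3 h library with TSP1 alone of either line. The cause of these shifts was not tested. RPS2P55, a ribosomal protein pseudogene at under 3 CPM, had a line difference of 0.30 that reversed without 1 library in 4 cases, at -0.62 to -0.27, with a range of -0.62 to 1.62. Of single genes and list medians, 2904 values kept direction and call, 62 gained it, 53 lost it, 150 moved and 4 reversed. The 4 reversals were all of RPS2P55. A change of sign in a list median, as for the genes of mitochondrial DNA, is not counted among them. A count of 3 is 0.122 to 0.186 CPM in a library, so differences below that level are not resolved.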
